A study of Hypericum perforatum with 6 samples.

Results

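The *Hypericum perforatum* genome carries a pair of *IDN2* relatives that the study annotated as *IDN2-like A* and *IDN2-like B*, and their expression was followed here in the nucellus of premeiotic ovules. Their members were the transcript variants that the study aligned to either gene, 5 of the 67022 transcripts in the deposited table. *IDN2-like A* was covered by Locus_2_Transcript_689193_835163 and Locus_2_Transcript_689185_835163. *IDN2-like B* was covered by Locus_13153_Transcript_20_20, Locus_5704_Transcript_2_3 and Locus_2_Transcript_781699_835163. The names are shortened below to the form L13153_T20_20, in which L stands for the assembly locus and T for the transcript within it. Values were RPKM (reads scaled to transcript length and library depth), so levels of different variants can be compared. In the draft genome used by the study, *IDN2-like A* lies on contig 60014 from 24915 to 28181 on the minus strand, and *IDN2-like B* on contig 61764 from 22007 to 24927 on the plus strand.

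IDN2 of Arabidopsis works in RNA-directed DNA methylation, the pathway in which small interfering RNAs paired with nascent non-coding transcripts bring a DNA methyltransferase to matching loci. It binds double-stranded RNA through its XS domain, forms dimers through its coiled coil, and joins its paralogs FDM1 and FDM2 through the XH domain. A zinc finger domain, Zf-XS, usually precedes the XS domain. The study's annotation lists the full set of domains for the protein of *IDN2-like A* and no Zf-XS domain for that of *IDN2-like B*. In Arabidopsis ovules, RNA-directed silencing is known for restricting which cells acquire a germline fate, and in aposporous plants embryo sacs arise from somatic cells of the nucellus without meiosis.

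Nucellus was cut by laser from ovules of tetraploid sexual and of tetraploid aposporous accessions, with 3 libraries per phenotype. Each library held the RNA of 3 plants, extracted from 250000 µm2 of sections. Whether the pools of a phenotype came from separate accessions is not given in the sources used here, so *p*-values measure the spread between pools. In such bulk tissue, fewer cells of a type and less RNA per cell cannot be told apart. The identity of the tissue could not be checked against marker genes, because the table does not pair transcripts outside the family with gene names.

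Libraries held 29355488 to 39483349 mapped reads, as recovered from the RPKM values, and 68.1% to 77.8% of transcripts had at least 1 read. Sexual library 3 stood apart from the other sexual libraries, with correlations of log2 values of 0.919 and 0.926 across transcripts, against 0.971 between sexual libraries 1 and 2 and 0.957 to 0.978 among the aposporous libraries. It also detected more transcripts (77.8%) than sexual libraries 1 and 2 (68.1% and 68.4%). The calls for *IDN2-like B* and L13153_T20_20 and the fold changes of *IDN2-like A* are also given without it below. So are the ratio of the summed genes, the shares of L13153_T20_20 and L5704_T2_3, and spreads within the sexual libraries. Most other values are given only with it included, and its part in them was not weighed.

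*IDN2-like B* was carried by 1 abundant variant, 1 intermediate variant and 1 rare variant, and for each of them all aposporous libraries lay below all sexual ones. L13153_T20_20, of 577 nt, was the abundant variant. It was at 104, 146 and 252 RPKM in sexual libraries 1, 2 and 3 and at 42.2, 40.6 and 18.0 RPKM in aposporous libraries 1, 2 and 3. These values rest on 2323 to 4930 reads per sexual library and 410 to 831 reads per aposporous library. The highest aposporous library was below the lowest sexual library, and sexual library 3 was the highest of all.

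The mean of L13153_T20_20 was 167 ± 76.1 RPKM over the sexual pools and 33.6 ± 13.5 RPKM over the aposporous pools (mean ± SD of 3 libraries, as throughout), 4.98 times as high in sexual ovules. On log2(RPKM + 1), the scale of all fold changes below, it fell by 2.28 in aposporous ovules (SE 0.41, 95% interval -3.21 to -1.35, FDR = 0.0299, limma over 33117 transcripts that had 10 or more reads in 3 or more libraries). At FDR of 0.05 or less, 2.11% of these transcripts were called, 0.610% as lower and 1.50% as higher in aposporous ovules. Of the 202 called lower, 8, L13153_T20_20 included, had a mean in sexual ovules at least as high as that of this variant. Across all tested transcripts, 137 had a log2 fold change further below 0.

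The call for L13153_T20_20 was lost when any 1 of the 6 libraries was left out, while the direction was kept. Omitting sexual library 1, 2 or 3 gave a log2 fold change of -2.57, -2.33 or -1.94, and omitting aposporous library 1, 2 or 3 gave -2.48, -2.46 or -1.89, with FDR from 0.0501 to 0.155 (limma).

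L5704_T2_3, the intermediate variant of 527 nt, was at 27.0, 51.2 and 24.5 RPKM in sexual libraries 1, 2 and 3 and at 17.4, 14.7 and 6.34 RPKM in aposporous libraries 1, 2 and 3. Its reads numbered 438 to 1001 per sexual and 132 to 275 per aposporous library. The phenotypes did not overlap, and here sexual library 2, not 3, was the highest. Means were 34.2 ± 14.8 RPKM (sexual) and 12.8 ± 5.76 RPKM (aposporous), and the log2 fold change of -1.38 (SE 0.42, 95% interval -2.34 to -0.42) missed the threshold (FDR = 0.160, limma).

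L2_T781699_835163, the rare variant of 720 nt, was at 2.01, 5.92 and 1.15 RPKM in sexual libraries 1, 2 and 3 and at 0.899, 0.431 and 0.317 RPKM in aposporous libraries 1, 2 and 3. Behind these values stood 56, 158 and 28 reads in the sexual and 19, 11 and 9 reads in the aposporous libraries. Sexual library 2 was again the highest, and the lowest sexual library (1.15 RPKM) was close to the highest aposporous library (0.899 RPKM). The log2 fold change of -1.21 (SE 0.46, 95% interval -2.26 to -0.17) missed the threshold (FDR = 0.270, limma), between means of 3.02 ± 2.54 RPKM (sexual) and 0.549 ± 0.309 RPKM (aposporous). At such low levels the added 1 RPKM makes this scale understate the difference. The log2 fold change was -2.05 with 0.1 RPKM added (FDR = 0.255, limma) and -2.24 with voom on reads (FDR = 0.346), neither of them called.

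In the aposporous libraries the order was the same for all 3 variants, highest in library 1 and lowest in library 3. The sexual libraries had no such common order. Library 3 was the highest of the sexual libraries for L13153_T20_20 and the lowest for L5704_T2_3 and L2_T781699_835163.

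**Figure D1:**
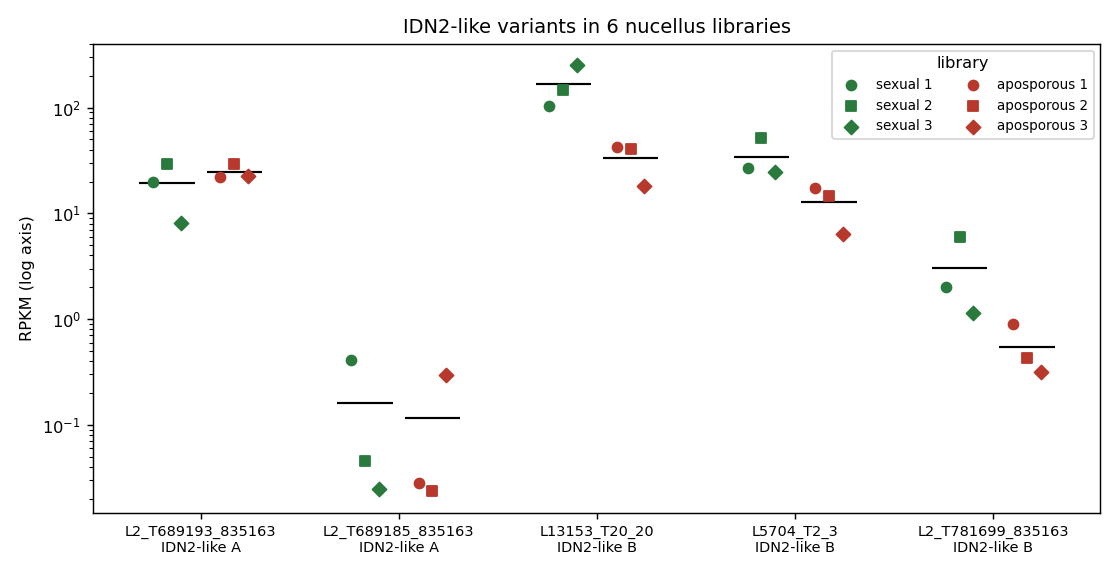
RPKM (log axis) of the 5 *IDN2-like* variants in each library. Points are single libraries, with shapes for libraries 1 to 3 and green for sexual and red for aposporous, and lines are means of 3 libraries. For the 3 variants of *IDN2-like B* all red points lie below all green points, and both variants of *IDN2-like A* overlap between phenotypes.

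*IDN2-like A* rested on nearly a single variant and did not pass the test. L2_T689193_835163, of 1289 nt, was at 19.97, 29.6 and 8.11 RPKM in sexual libraries 1, 2 and 3 and at 21.9, 29.5 and 22.7 RPKM in aposporous libraries 1, 2 and 3, from 355 to 1413 reads per library. The phenotypes overlapped, since the aposporous values lay within the range of the sexual ones, and sexual library 3 was the lowest of all 6. With means of 19.2 ± 10.7 RPKM (sexual) and 24.7 ± 4.19 RPKM (aposporous), the log2 fold change was 0.50 (SE 0.43, 95% interval -0.47 to 1.47, FDR = 0.696, limma). Its interval holds both no difference and an increase of more than 1 log2 unit. Leaving out 1 library at a time gave log2 fold changes from 0.01 (without sexual library 3) to 0.88 (without sexual library 2).

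The other variant of *IDN2-like A*, L2_T689185_835163, of 1199 nt, was close to the limit of detection. It had 19, 2 and 1 reads in sexual libraries 1, 2 and 3 and 1, 1 and 14 reads in aposporous libraries 1, 2 and 3, or 0.0235 to 0.410 RPKM. A count of 3 reads corresponds to 0.0634 to 0.0852 RPKM for this length, so it was above that level in 1 library of each phenotype and no fold is given. It was the 1 member that did not pass the filter and was not tested.

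Among the 4 members tested, 1 was called, as lower (0.610% of all transcripts tested, and 2.11% in either direction), and 3 had no overlap between phenotypes in the lower direction, where 9.90% of all tested transcripts had none (10.2% in the higher direction and 20.1% in either). The 4 are not independent cases, because the 3 lower ones belong to 1 gene. The median log2 fold change of the 4 was -1.30, beside 0.03 over all transcripts tested.

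Summed over its variants, *IDN2-like B* was at 133, 203 and 277 RPKM in sexual libraries 1, 2 and 3 and at 60.4, 55.8 and 24.7 RPKM in aposporous libraries 1, 2 and 3. *IDN2-like A* was at 20.4, 29.6 and 8.14 RPKM in the sexual libraries and at 22.0, 29.5 and 23.0 RPKM in the aposporous libraries, in the same order. The sums of *IDN2-like B* did not overlap and those of *IDN2-like A* did. In sexual library 3, *IDN2-like B* had its highest and *IDN2-like A* its lowest value of all libraries.

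The sum of *IDN2-like B* fell by 2.14 on the log2 scale (SE 0.39, 95% interval -3.02 to -1.25, FDR = 0.0315, limma), in a fit in which 2.08% of features were called, 0.598% as lower and 1.48% as higher. This call, too, was lost without any 1 library, at log2 fold changes of -2.41, -2.11 and -1.89 when sexual library 1, 2 or 3 was omitted and -2.37, -2.31 and -1.74 when aposporous library 1, 2 or 3 was omitted (FDR from 0.0529 to 0.154, limma). With L13153_T20_20 taken out of the sum, the log2 fold change was -1.43 and missed the threshold (FDR = 0.154, limma). For *IDN2-like A* the log2 fold change was 0.50 (SE 0.43, 95% interval -0.47 to 1.47), from 0.00 without sexual library 3 to 0.87 without sexual library 2.

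The SD of *IDN2-like A* was 55.6% of its mean in sexual and 16.6% in aposporous ovules, while that of *IDN2-like B* was 35.3% and 41.4%. Without sexual library 3 the values in sexual ovules were 26.1% for *IDN2-like A* and 29.3% for *IDN2-like B*, so the wide spread of *IDN2-like A* rests on that library.

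The ratio of *IDN2-like B* to *IDN2-like A* sets both genes against each other within a library, so that the depth of the library cancels. It was 6.53, 6.85 and 34.1 in sexual libraries 1, 2 and 3 and 2.75, 1.89 and 1.07 in aposporous libraries 1, 2 and 3. By summed RPKM, *IDN2-like B* was thus above *IDN2-like A* in every library, and the level of both was nearly even in aposporous library 3. This order depends on summing the variants. With the main variant of each gene alone, the ratio in aposporous library 3 was 0.794. Every aposporous ratio was below every sexual one, and within a phenotype the highest ratio was 5.22 times the lowest in sexual (1.05 times without library 3) and 2.56 times in aposporous libraries.

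On the log2 scale the ratio was 3.53 ± 1.36 in the sexual and 0.83 ± 0.68 in the aposporous libraries. The difference was -2.70, or a ratio 6.49 times as high in sexual ovules (two-sided exact permutation test, p = 0.1). With 3 libraries against 3 this is the smallest p that the exact test can give, so it cannot pass 0.05. Geometric means of the ratio were 11.5 and 1.77. Without sexual library 3 the difference was -1.92, and leaving out the other libraries in turn gave values down to -3.11.

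The ratio kept its order between phenotypes when it was built differently. From reads not scaled to length it was 2.89, 3.02 and 15.2 in sexual and 1.21, 0.827 and 0.472 in aposporous libraries, so that in aposporous libraries 2 and 3 *IDN2-like A* had more reads than *IDN2-like B*. With the main variant of each gene alone, L13153_T20_20 over L2_T689193_835163, it was 5.22, 4.93 and 31.0 against 1.92, 1.38 and 0.794. With L13153_T20_20 left out, the remaining variants of *IDN2-like B* were at 1.42, 1.93 and 3.15 times the level of *IDN2-like A* in sexual and at 0.833, 0.513 and 0.290 times in aposporous libraries, a log2 difference of -2.04 (two-sided exact permutation test, p = 0.1). The side of 1 on which this last ratio lay was the same for all 3 libraries of a phenotype, above in sexual and below in aposporous.

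**Figure D2:**
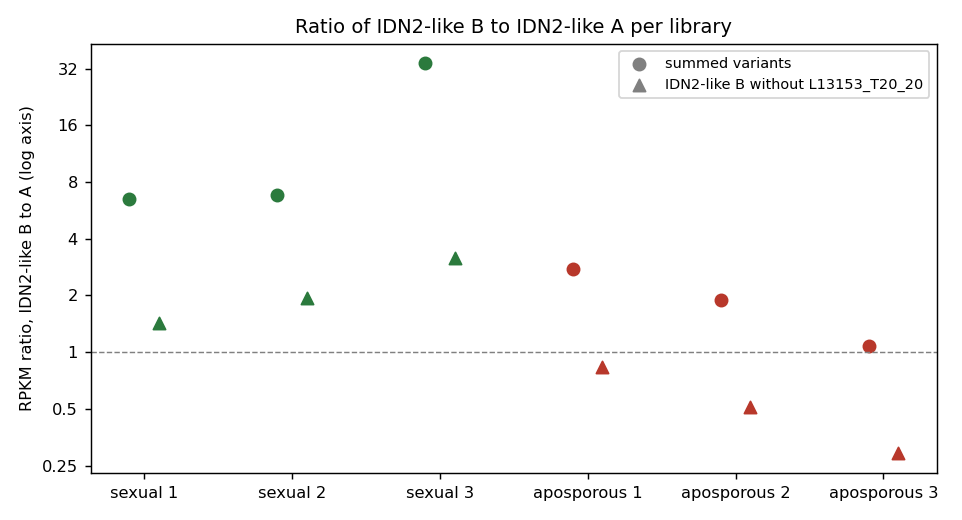
Ratio of the RPKM of *IDN2-like B* to that of *IDN2-like A* in each library (log axis), for summed variants (circles) and with L13153_T20_20 left out of *IDN2-like B* (triangles), in green for sexual and red for aposporous libraries. The dashed line marks equal levels. Circles range from 6.53 to 34.1 in sexual and from 1.07 to 2.75 in aposporous libraries, and triangles lie above the line in sexual and below it in aposporous libraries.

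The same variant led *IDN2-like B* in all 6 libraries, and 3 libraries against 3 cannot bring a difference in variant usage below p = 0.1 (exact permutation test). Whether its variants are alternative transcripts or pieces of the same transcript was not examined, so the shares compare assembled sequences. L13153_T20_20 made up 78.2%, 71.8% and 90.8% of the RPKM of the gene in sexual libraries 1, 2 and 3 and 69.7%, 72.8% and 73.0% in aposporous libraries 1, 2 and 3. The aposporous libraries had an SD of 1.83 points, and sexual library 2 lay among them. Mean shares were 80.3% ± 9.63 (sexual) and 71.9% ± 1.83 (aposporous), which differed by -8.41 points (two-sided exact permutation test, p = 0.3, adjusted p = 0.6 over the 4 shares tested). Without sexual library 3 the difference was -3.16 points.

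L5704_T2_3 made up 20.3%, 25.3% and 8.83% of *IDN2-like B* in the sexual libraries and 28.8%, 26.4% and 25.7% in the aposporous libraries. Its share was higher in all aposporous libraries than in all sexual ones, although its level was lower there, and sexual library 2 was close to aposporous library 3. The difference of the means was 8.84 points (two-sided exact permutation test, p = 0.1, adjusted p = 0.4), and 4.20 points without sexual library 3. L2_T781699_835163 stayed at 0.413% to 2.92% of the gene in sexual and 0.773% to 1.49% in aposporous libraries (two-sided exact permutation test, p = 0.7).

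The level of L13153_T20_20 was 3.86, 2.84 and 10.3 times that of L5704_T2_3 in sexual libraries 1, 2 and 3 and 2.42, 2.76 and 2.84 times in aposporous libraries 1, 2 and 3. Sexual library 3 was thus the library in which both main variants of *IDN2-like B* stood furthest apart. In reads, the share of L13153_T20_20 was 91.4% there (Wilson 95% interval 90.6 to 92.1), against 79.3% (77.8 to 80.7) and 72.9% (71.5 to 74.2) in sexual libraries 1 and 2. In aposporous libraries 1, 2 and 3 it was 71.3% (68.4 to 74.0), 74.4% (71.8 to 76.9) and 74.4% (70.6 to 77.9). The intervals cover counting error only. The sexual libraries were apart from each other by more than these intervals, while those of the aposporous libraries overlapped.

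For *IDN2-like A*, L2_T689193_835163 gave 98.0% to 99.8% of the RPKM in sexual and 98.7% to 99.9% in aposporous libraries (two-sided exact permutation test, p = 0.5, adjusted p = 0.667). The remainder, from L2_T689185_835163, was highest in sexual library 1 (2.01%) and aposporous library 3 (1.29%) and at most 0.302% in the other libraries.

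**Figure D3:**
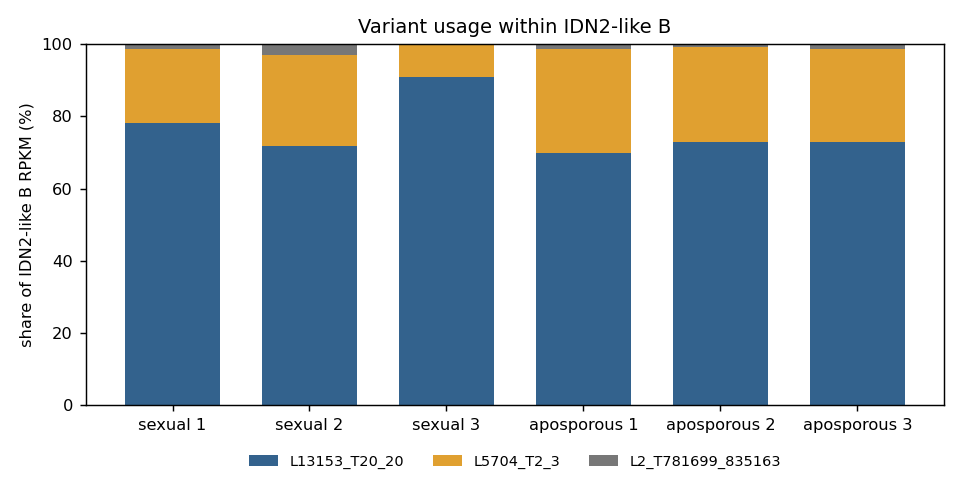
Share of each variant in the RPKM of *IDN2-like B* (%), 1 stacked bar per library. L13153_T20_20 (blue) is the largest share in every library, from 69.7% to 90.8%, and L5704_T2_3 (orange) is lowest in sexual library 3, at 8.83%.

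Seen against the whole table, L13153_T20_20 was among the more abundant transcripts of sexual ovules, with 97.2%, 98.0% and 98.9% of all transcripts below it in sexual libraries 1, 2 and 3. In aposporous libraries 1, 2 and 3 this share was 92.3%, 92.0% and 85.2%. L2_T689193_835163 had 80.3% to 89.7% of transcripts below it over the 6 libraries, lowest in sexual library 3, so that in aposporous library 3 the main variants of both genes stood near each other in the order of transcripts, at 85.2% and 87.2%.

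The family has 9 genes in the study's annotation, both *IDN2-like* genes and 7 *FDM-like* genes, whose Arabidopsis counterparts act as partners or paralogs of IDN2. By summed RPKM, *IDN2-like B* was the highest of the 9 in each sexual library. It ranked 3, 3 and 7 in aposporous libraries 1, 2 and 3. Its main variant alone, L13153_T20_20, was below L1163_T42_51 of *FDM1-like A* in sexual library 1 (104 against 118 RPKM). In sexual libraries 2 and 3 L13153_T20_20 was above it (146 against 122 and 252 against 87.1 RPKM). *IDN2-like A* ranked 6, 5 and 8 in sexual and 7, 6 and 8 in aposporous libraries. The ranks of *IDN2-like B* did not overlap between phenotypes, and those of *IDN2-like A* did.

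The neighbours in the order of mean levels show which of these places are clear of the spread. In sexual ovules, the sum of *IDN2-like B* (133 to 277 RPKM) did not overlap with that of the next gene, *FDM1-like A* (88.6 to 131 RPKM). The main variants of these genes did overlap, L13153_T20_20 at 104 to 252 RPKM and L1163_T42_51 at 87.1 to 122 RPKM. In aposporous ovules, *IDN2-like B* (24.7 to 60.4 RPKM) was clear of *FDM4-like D* above it (88.4 to 114 RPKM) and overlapped with *FDM4-like C* below it (32.8 to 55.3 RPKM). *IDN2-like A* overlapped with both of its neighbours in each phenotype, namely *FDM4-like A* and *FDM4-like C* in sexual ovules and *FDM1-like C* and *FDM4-like A* in aposporous ovules.

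**Figure D4:**
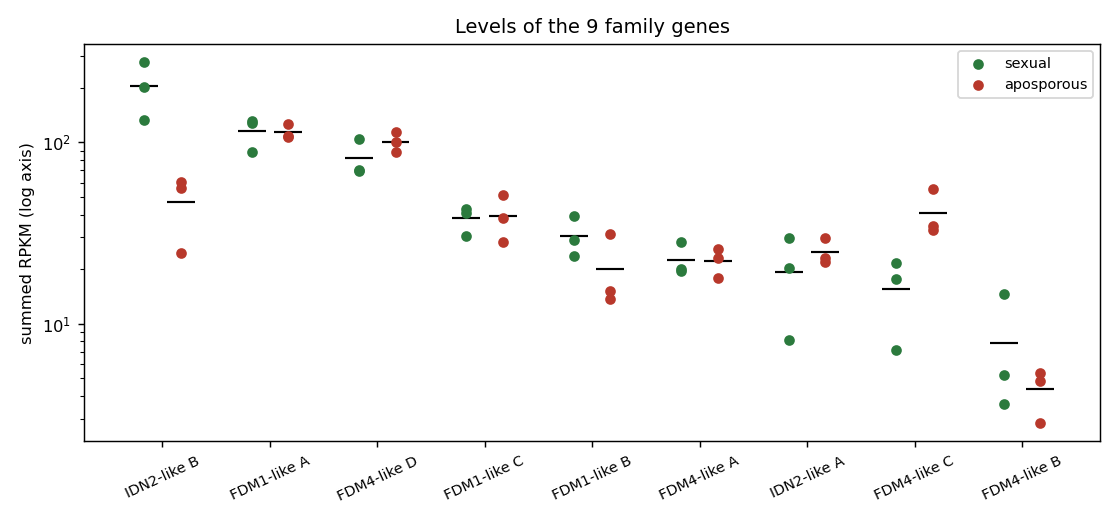
Summed RPKM (log axis) of the 9 family genes, ordered by the mean in sexual ovules. Points are libraries, in green for sexual and red for aposporous, and lines are means of 3. *IDN2-like B* lies above *FDM1-like A* in sexual ovules and below *FDM4-like D* in aposporous ovules.

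*IDN2-like B* held 26.6%, 37.0% and 49.6% of the RPKM of the family in sexual libraries 1, 2 and 3 and 14.6%, 13.5% and 5.93% in aposporous libraries 1, 2 and 3. *IDN2-like A* held 4.08%, 5.40% and 1.45% in the sexual and 5.31%, 7.16% and 5.52% in the aposporous libraries. Both *IDN2-like* genes together were at 154, 232 and 285 RPKM in sexual and at 82.4, 85.3 and 47.6 RPKM in aposporous libraries, while the 7 *FDM-like* genes together were at 312 ± 36.3 RPKM (sexual) and 342 ± 22.8 RPKM (aposporous). The sum of both genes in each aposporous library was below that in any sexual one.

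Of the 13 *FDM-like* variants, 11 were tested, 1 was called higher and 0 lower in aposporous ovules, beside 1.50% and 0.610% of all transcripts tested. In 3 of the 11 all aposporous libraries were above all sexual ones, beside 10.2% of all transcripts tested, but for 2 of these the filter fixed this, as given below. The called variant was L2_T405120_835163 of *FDM1-like C* (FDR = 0.0112, limma), with 0, 1 and 0 reads in sexual libraries 1, 2 and 3 and 48, 117 and 106 reads in aposporous libraries 1, 2 and 3. L2_T484402_835163 of *FDM4-like C* likewise had 2, 0 and 0 against 211, 416 and 43 reads. Both passed the filter on reads only through the aposporous libraries, so the filter itself fixed their lack of overlap, which is no result. The call of L2_T405120_835163 is not independent of that filter either. Their fitted log2 fold changes (2.38 and 2.78) depend on the 1 RPKM that was added. The remaining variant without overlap, L2_T485004_835163 of *FDM4-like C*, was not called (FDR = 0.236, limma). The other 9 variants ran from -0.65 to 1.14. Summed per gene, 0 of the 7 *FDM-like* genes was called by limma, and 3 lay below and 4 above 0. Of the 7, 1 had an unadjusted p under 0.05 (*FDM4-like C*, log2 fold change 1.43, FDR = 0.134, limma). In the fit of variants 4571 of all 33117 transcripts had such a p, so this count does not set the genes apart. No *FDM-like* gene had an estimate as far below 0 as that of *IDN2-like B*, the lowest being *FDM1-like B* at -0.65 (95% interval -1.46 to 0.16).

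**Figure D5:**
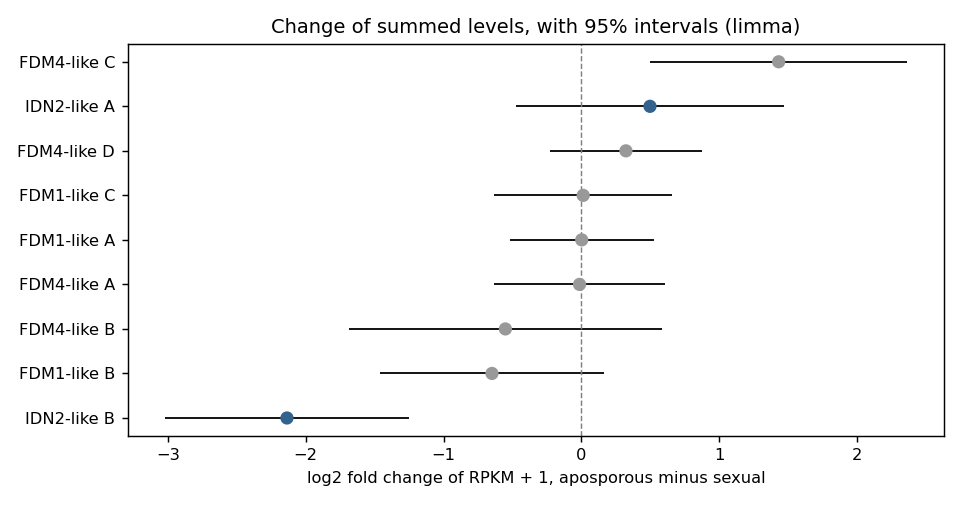
Log2 fold change of RPKM + 1 (aposporous minus sexual) of the 9 family genes, with 95% intervals from limma that are not adjusted for the number of genes. *IDN2-like B* at -2.14 is the 1 gene called at FDR of 0.05 or less. The interval of *IDN2-like A* runs from -0.47 to 1.47.

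To see which transcripts ran most like each gene over the 6 libraries, log2(RPKM + 1) was centred on its mean, and the root mean square difference from the gene's sum was taken for 23907 transcripts with at least 10 reads in every library. For *IDN2-like A* the nearest were L2_T100648_835163 (0.0750) and L2_T341606_835163 (0.0855), where the median over all transcripts was 0.658. L2_T100648_835163 was at 18.4, 24.3 and 7.89 RPKM in sexual and at 20.3, 25.4 and 21.0 RPKM in aposporous libraries, with the same low value in sexual library 3. For *IDN2-like B* the nearest were L2_T219969_835163 (0.219) and L2_T691307_835163 (0.299), with a median of 1.25.

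L2_T219969_835163 was at 10.7, 12.3 and 21.1 RPKM in sexual and at 4.89, 3.17 and 1.61 RPKM in aposporous libraries. L2_T691307_835163 was far more abundant, at 1151, 1568 and 2373 RPKM in sexual and at 824, 410 and 267 RPKM in aposporous libraries. Both had the same order of libraries as *IDN2-like B*. The nearest transcripts of both genes were picked for likeness over these libraries, so a shared pattern is built into the choice. The table gives no gene names for these 4 transcripts. Within the family, the smallest difference from *IDN2-like A* was that of *FDM1-like A* (0.462), and *IDN2-like A* and *IDN2-like B* were 1.56 apart. For *IDN2-like B* the smallest was that of *FDM1-like B* (1.09). This is little below the median over all transcripts (1.25), so it shows no close likeness.

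The assembly itself limits how firmly single variants can be read. L2_T689193_835163, L2_T689185_835163 and L2_T781699_835163 belong to assembly locus 2, which holds 50.5% of the transcripts of the table and took 83.1% to 84.1% of the reads of a library. L13153_T20_20 and L5704_T2_3 come from loci with 20 and 3 assembled transcripts, of which the table lists 0 others. Reads of near-identical transcripts can be split among them by the mapping, which was not examined. *IDN2-like B* is a sum of short fragments of 527 to 720 nt. If they cover different stretches of the same transcript, the sum counts that transcript more than once, which was not examined.

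Genome-based read mapping, RT-qPCR in pistils, hormone treatments, predicted protein interactions and promoter annotation also formed part of the study's work on both genes. Their values are not analysed here.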

How the data were processed

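RNA was sequenced from laser-microdissected nucellus, with 3 sexual and 3 aposporous libraries assigned by the sample labels. Sequences of both phenotypes had been joined by the authors in 1 de novo assembly, on which they mapped and counted each library with CLC Genomics Workbench V 7 at default parameters, and RPKM per transcript was deposited. Read filters: not given in the sources used here. Columns without a sample numbered 0. The mapped reads of each library were recovered as the total at which RPKM, scaled by transcript length and that total, gives whole reads. This held for 100% of values (within 0.05 read), and the recovered reads summed to that total. For a length of 1 kb, 1 read equals 0.0253 to 0.0341 RPKM. Where 0 reads were counted, up to 3 remain possible. Chi-square values per degree of freedom between libraries of a phenotype were at least 49.3, so none was taken for a repeat.

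Members were taken by transcript name and summed per gene. Members and lists were chosen with earlier results of these data known. Log2(RPKM + 1) was compared with limma 3.58.1 (R 4.3.3, trend and robust), without covariates, over the 33117 of 67022 transcripts that reached 10 reads in 3 or more libraries, and called at a Benjamini-Hochberg FDR of 0.05 or less. The fit was tested on simulated data. Gene sums replaced the variants of the 9 genes in a second fit. Ratios and shares were compared by exact permutation over the 10 divisions into 3 and 3. Transcripts named outside the family were the 2 nearest to each gene and those with neighbouring assembly numbers. Alternatives were a pseudocount of 0.1, no filter, 10 reads in every library, TMM scaling, voom on reads, a replicate block, reads in place of RPKM, and omission of L13153_T20_20 or of each library. Other steps used Python 3.11.15 with scipy 1.17.1, pandas 2.3.3 and numpy 2.4.6, and plots matplotlib 3.10.9.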

Additional observations from a re-analysis of the deposited data

How the results depend on the processing

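The direction was the same for L13153_T20_20 and for the sum of *IDN2-like B* under every alternative fitted. Their calls were kept with a pseudocount of 0.1, no filter and TMM scaling, and lost otherwise. For L13153_T20_20 the log2 fold change was -2.28 (FDR = 0.0881, limma) with 10 reads in every library and -2.29 (FDR = 0.0638) with voom. For the sum of *IDN2-like B* it was -2.14 (FDR = 0.0932, limma) with 10 reads in every library, -2.15 (FDR = 0.0607) with voom and -1.43 (FDR = 0.154) without L13153_T20_20. Leaving out 1 library at a time gave -2.57 to -1.89 for L13153_T20_20 and -2.41 to -1.74 for *IDN2-like B*, with the call lost for all 6 libraries in both cases. The call of *IDN2-like A* did not change, and for the ratio of *IDN2-like B* to *IDN2-like A* the difference stayed below 0 throughout. The number of transcripts called, 699 at the settings of the report, was 352 with no filter, 40 with 10 reads in every library, 337 with voom and 41 to 478 without 1 library. With 10 reads in every library, 23919 transcripts were tested in place of 33117, and omitting a library left fewer samples. The cause of the changed counts was not tested for any setting. Voom moved the median log2 fold change of all transcripts from 0.03 to 0.13, and its share of lower calls was 21.1% against 28.9%.

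With the replicate number as a block, the log2 fold changes were -2.28 (FDR = 0.0676, limma) for L13153_T20_20 and -2.14 (FDR = 0.0669, limma) for *IDN2-like B*, and 353 transcripts were called. By their labels, libraries with the same number shared only that number. Correlations of their deviations from the phenotype means were 0.0488, 0.0637 and 0.0381, against -0.0457 to -0.0122 for pairs with different numbers. Every library correlated best with its own number, but all of these correlations were small. Deviations from a phenotype mean sum to 0 over its libraries, so the correlations are not independent. They cannot show whether libraries of the same number belong together. The paired difference of the log2 ratio was -2.70 (exact sign-flip test, p = 0.25, the smallest it allows).

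Depth limits L2_T689185_835163 (1 to 19 reads) and, less so, L2_T781699_835163 (9 to 158 reads). With 3 libraries per phenotype the exact tests cannot go below p = 0.1.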

Other observations

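Assembly numbers near those of the *IDN2-like A* variants held 1 other transcript in the table, L2_T689175_835163, of 1524 nt, which the study did not assign to a gene of the family. It was at 68.2, 87.4 and 102 RPKM in sexual libraries 1, 2 and 3 and at 71.4, 64.7 and 76.0 RPKM in aposporous libraries 1, 2 and 3, above L2_T689193_835163 in every library. The phenotypes overlapped, and the log2 fold change was -0.26 (SE 0.23, FDR = 0.705, limma). Unlike L2_T689193_835163, it was at its highest in sexual library 3. Within 10 numbers of L2_T781699_835163 the table listed 0 other transcripts.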
